A study of Homo sapiens with 6 samples.

Results

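The human embryonic stem cell line H9, an established line, was compared between naive-like culture in RSeT, a commercial medium, and primed culture in mTeSR, for the RNA of every repeat listed in a deposited count table. The comparison uses 4 of the 6 libraries of the series, those labelled RSeT replicates 1 and 2 and primed replicates 1 and 2, and all 15600 repeat entries. Neither group received a drug. The remaining group, RSeT cells given 10 nM DZNep and 5 nM TSA and collected after 48 h, entered the filter, the TMM scaling and the estimate of the spread, and is not compared here. All groups are the same cell line, and the labels do not say whether replicates were separate cultures, so the spread behind each p-value is that of these libraries and may be technical only.

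Human pluripotent cells can be held in states that resemble the blastocyst before implantation (naive) or the epiblast after it (primed). Repeats make up much of the genome, and a large part of them are kept silent by DNA methylation and repressive chromatin, both of which are known to be lower or differently placed in naive cells. Endogenous retroviruses consist of an internal part with the viral genes between a pair of long terminal repeats (LTRs) that act as promoters, LINE1 elements move by copying their own RNA, and satellites are tandem arrays at and near centromeres.

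Counts assigned to repeats summed to 13628911 to 38312112 per library, with RSeT replicate 1 the deepest. Of the 15600 entries 14230 were simple repeats, 4 were low-complexity and 1258 were interspersed repeats, and 5284 were at 0 in all 4 libraries. A filter on low counts kept 4665. Levels are the deposited CPM, counts of a repeat scaled to a fixed total of repeat counts, given in the order primed 1, primed 2, RSeT 1, RSeT 2, and log2 fold changes are RSeT minus primed from edgeR's quasi-likelihood test with TMM scaling and Benjamini-Hochberg adjustment over all kept entries. Each count sums all copies of a repeat, so it has no single genomic position, closely related subfamilies can share reads, and copies in introns or untranslated regions also count RNA of the host gene. The 2 large ribosomal RNA entries set primed replicate 1 apart from primed replicate 2, at 6177 and 1203 CPM for LSU-rRNA_Hsa and 5134 and 465.3 CPM for SSU-rRNA_Hsa.

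The simple repeats with the largest rises included the pentamer of human satellites 2 and 3, which fill large blocks of heterochromatin beside several centromeres. The table lists this pentamer under 10 names, 1 for each starting base and orientation. They are shown because neighbouring names of the same tandem gave very different values. Each is printed as 3 units, with the unit as the table names it in capitals, read 5′ to 3′, first the 5 rotations of 1 strand and then those of its reverse complement:
(GGAAT)n as 3 units: ggaatGGAATggaat
(TGGAA)n as 3 units: tggaaTGGAAtggaa
(ATGGA)n as 3 units: atggaATGGAatgga
(AATGG)n as 3 units: aatggAATGGaatgg
(GAATG)n as 3 units: gaatgGAATGgaatg
(ATTCC)n as 3 units: attccATTCCattcc
(TTCCA)n as 3 units: ttccaTTCCAttcca
(TCCAT)n as 3 units: tccatTCCATtccat
(CCATT)n as 3 units: ccattCCATTccatt
(CATTC)n as 3 units: cattcCATTCcattc

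(GGAAT)n had 12 and 5 counts in the primed libraries and 9607 and 4803 in the RSeT libraries. As CPM these were 0.713, 0.367, 250.8 and 279.4, a log2 fold change of 8.998 (SE 0.149, adjusted p = 1.74e-25, n = 2 each), and the groups were far apart. (TGGAA)n gave 0.475, 0.440, 13.9 and 17.9 CPM (5.19, SE 0.248). (TCCAT)n, on the opposite strand, gave 0.416, 0.367, 10.4 and 10.5 CPM (4.83, SE 0.324). (ATGGA)n rose from 1 count in each primed library to 46 and 42 counts. (ATTCC)n rose by 1.06, (AATGG)n by 0.84 and (TTCCA)n by 0.59. The other 3 names did not pass, with log2 fold changes of 0.15 for (GAATG)n, 0.33 for (CATTC)n and -0.59 for (CCATT)n. Summed over the 5 rotations written as (GGAAT)n, the level was 17.5, 18.6, 287.0 and 322.4 CPM, a 16.9-fold rise of the mean, and over the 5 of the reverse complement it was 14.7, 14.5, 27.3 and 29.5 CPM, a 1.94-fold rise. No source used here says which genomic blocks carry each name or with which strand setting reads were counted, so the orientation of a name is not the strand of the RNA. HSATII, the entry named for human satellite 2 itself, had 0 counts in all 4 libraries, which allows up to 3 counts in each. The name (TTAGGG)n of the telomere repeat was also at 0, but other names of that hexamer had counts. Summed over the 6 rotations written as (TTAGGG)n they were 61, 22, 78 and 47. Over the 6 of the reverse complement they were 127, 135, 204 and 114.

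Alpha satellite, the repeat on which human centromeres form, led the entries other than simple repeats. ALR/Alpha stood at 523.6, 548.8, 32360 and 32560 CPM (log2 fold change 6.05, SE 0.041), and moved from rank 163 to rank 3 of 1256 entries by level. It made up 27.2% and 26.6% of all satellite counts in the primed libraries and 95.9% and 95.7% in the RSeT libraries. ACRO1, a satellite of the short arms of acrocentric chromosomes, rose by 6.05 from 0.891 and 1.32 CPM to 63.7 and 69.2 CPM. The other satellites did not share this: of 16 kept, 7 were higher and 5 lower, with a median of -0.03 on the log2 scale (6 higher and 7 lower under the alternative scaling described below). Among all kept entries 22.8% were higher and 23.8% lower. SATR1 rose by 1.44, LSAU by 1.31 and CER by 1.04. HSAT4 fell by 1.04, D20S16 by 0.75, and TAR1, which lies beside telomeres, by 0.40. BSR/Beta, the beta satellite, stood at 766.4, 811.1, 678.8 and 711.5 CPM (-0.05, adjusted p = 0.375), though it was lower under interspersed scaling (-0.21).

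Across all kept entries 1064 were higher in RSeT cells (22.8%) and 1110 lower (23.8%), and the balance depended on the kind of repeat. Of 1136 interspersed repeats 577 were higher (50.8%) and 91 lower (8.01%), with a median log2 fold change of 0.16. Of 3433 simple and low-complexity repeats 435 were higher (12.7%) and 1003 lower (29.2%), with a median of -0.16. Most changes were small: 56 interspersed repeats rose by at least 2-fold and 6 by at least 4-fold, while 6 fell by 2-fold and none by 4-fold. The direction of small changes rests on the scaling. With the small RNA, ribosomal RNA and simple repeats left out before normalization (called interspersed scaling here), the median of all entries moved from -0.03 to -0.19, 316 interspersed repeats were higher and 270 lower, and counts under it are given beside the groups whose balance it changes. The deposited CPM are not TMM-adjusted, so a small fitted rise can stand beside equal CPM.

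**Figure D1:**
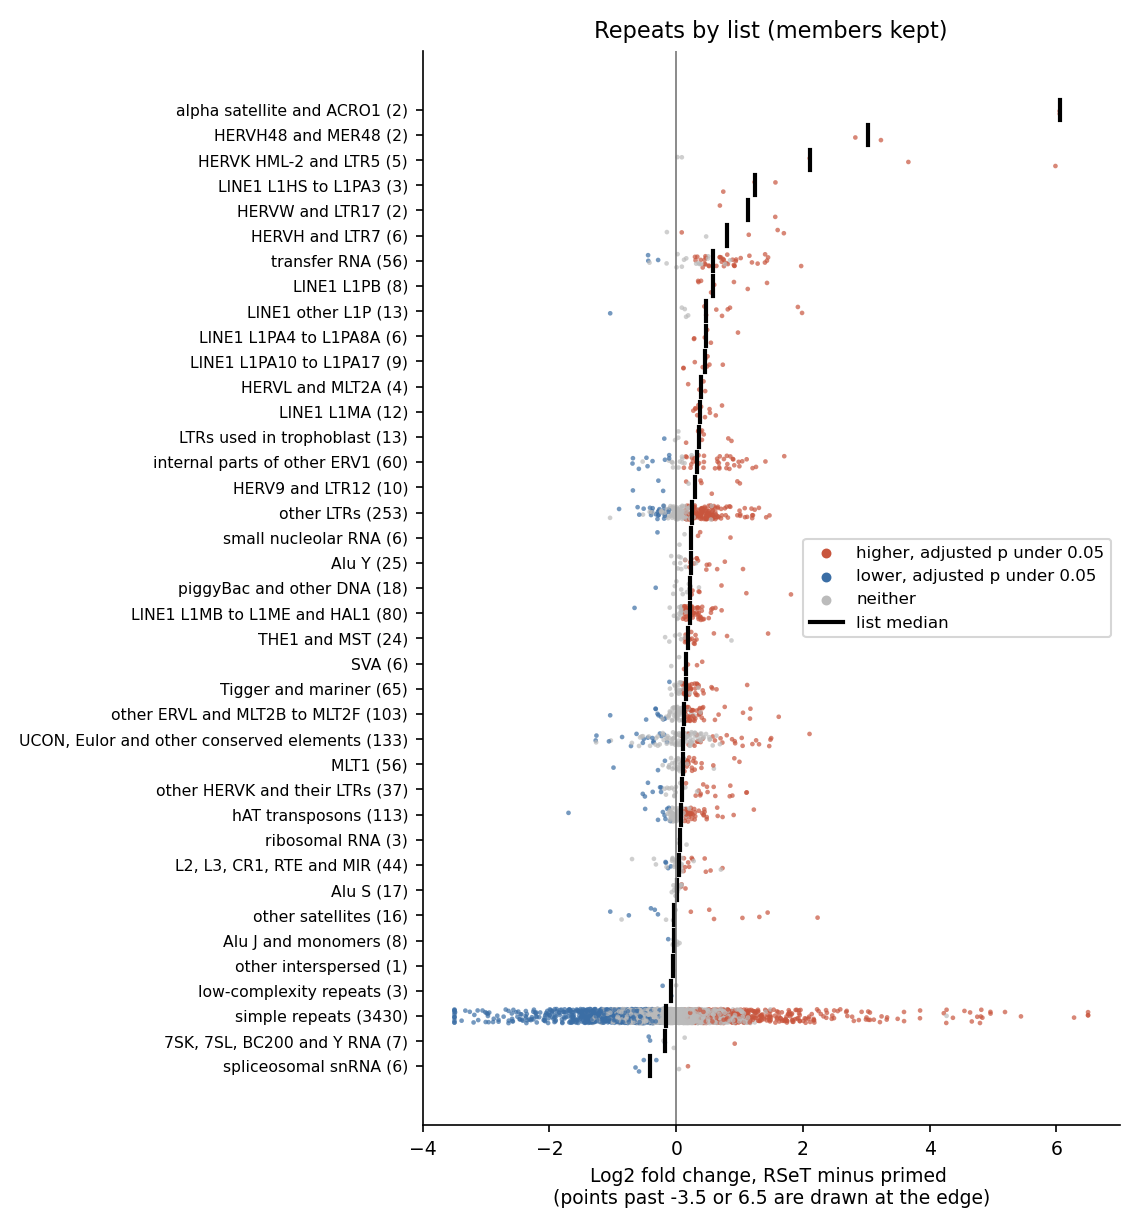
Log2 fold changes (RSeT minus primed, horizontal axis) of all kept entries by list, with the number of members in parentheses, red for higher, blue for lower and grey for neither at an adjusted p of 0.05, and a black bar at the list median. The medians run from 6.05 for alpha satellite and ACRO1 to -0.41 for the spliceosomal RNAs, and simple repeats spread widely on both sides of their median of -0.16.

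Markers of the culture states were mixed. Beside their counts stand the 50.8% of all interspersed repeats that were higher and the 8.01% that were lower. Of 11 repeats drawn up as markers of naive culture 9 rose (7 rose and 2 fell under interspersed scaling). Among the 9, SVA_D and SVA_E overlapped between the groups in CPM. The summed level of the 11 went from 3973 and 4135 CPM to 28300 and 27510 CPM, most of it HERVK-int. The 2 that did not pass were SVA_B and SVA_C, members of a composite family specific to apes and humans. Of 3 repeats drawn up as markers of primed culture, HERVH-int and LTR7 were higher in the RSeT libraries and LTR7C did not pass (-0.15, adjusted p = 0.119), so HERVH-int and LTR7 went against the name of the list. Under interspersed scaling these 2 were still higher and LTR7C was lower (-0.31, adjusted p = 0.00239). Of 6 repeats active at the 8-cell stage 5 rose in the fit, and under interspersed scaling 3 rose and 1 fell. Among the 5, MLT2A1 overlapped between the groups in CPM and LTR7B was not higher in CPM. The sum of the 6 changed little, from 1635 and 1698 CPM to 1855 and 1901 CPM. Among 13 LTRs and retroviral parts used in trophoblast 9 rose and 1 fell (7 and 3 under interspersed scaling), with sums of 2689, 2805, 3349 and 3411 CPM. Their part in the other results was not tested. Gene-level markers were not analysed here.

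HERVK (HML-2) is the youngest human retrovirus family, and its LTR5_Hs promoters are known to be active in naive cells and preimplantation embryos. HERVK-int stood at 335.8, 344.5, 20070 and 19230 CPM (5.98, SE 0.034), moving from rank 233 to rank 6. LTR5_Hs, its LTR, stood at 327.3, 364.7, 4019 and 3974 CPM (3.66). Both groups were far apart, and the internal part rose more than the LTR: HERVK-int counts per LTR5_Hs count were 1.03 and 0.945 in the primed libraries against 4.99 and 4.84 in the RSeT libraries. The other LTR entries of the family split. The entry named LTR5 rose by 2.11 (SE 0.135) at a low level, from 4.04 and 4.84 to 17.3 and 17.4 CPM. The older LTR5A and LTR5B stayed behind, at 0.09 and 0.02 on the log2 scale, neither passing the test. LTR5B was lower under interspersed scaling, at -0.14. The ratio of LTR5_Hs to LTR5B went from 1.23 and 1.24 to 15.6 and 15.4. HML-2 as a whole took 0.927% and 0.960% of LTR-element counts in primed cells and 12.5% and 11.9% in RSeT cells.

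HERVH, driven by LTR7 and known for its activity in human pluripotent cells, was already the second most abundant entry in primed cells and kept that rank. HERVH-int stood at 23830, 26520, 73440 and 75620 CPM and LTR7 at 3321, 3574, 9417 and 9660 CPM, with log2 fold changes of 1.70 and 1.60. Here both parts moved almost equally, with internal counts per LTR count of 7.18, 7.42, 7.80 and 7.83. Of the variants of the LTR, LTR7Y, the form linked to naive cells, rose by 1.14 from 28.9 and 32.7 to 62.2 and 61.5 CPM, less than LTR7 itself: the ratio of LTR7Y to LTR7 fell from 0.00869 and 0.00916 to 0.00661 and 0.00637. LTR7B was at 289.8, 301.1, 289.8 and 282.4 CPM, a fitted 0.09 that became -0.07 under interspersed scaling. HERVH and LTR7 together made up 23.1% and 24.6% of LTR-element counts in primed and 42.3% and 42.9% in RSeT cells.

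HERVH48, a related family that includes the source of the placental protein suppressyn, rose in both parts. HERVH48-int stood at 77.9, 80.5, 678.7 and 678.3 CPM (3.23, SE 0.049). Its LTR, MER48, stood at 26.7, 25.5, 172.9 and 166.2 CPM (2.83, SE 0.058), and internal counts per LTR count rose from 2.91 and 3.15 to 3.93 and 4.08. HERVW, whose member at the syncytin-1 locus serves cell fusion in the placenta, showed the opposite balance. LTR17 rose by 1.56 (165.6, 171.0, 451.8 and 455.4 CPM) and HERV17-int by 0.69 (332.0, 343.3, 498.7 and 494.6 CPM), so the ratio of internal part to LTR went from 2.005 and 2.008 to 1.10 and 1.09.

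**Figure D2:**
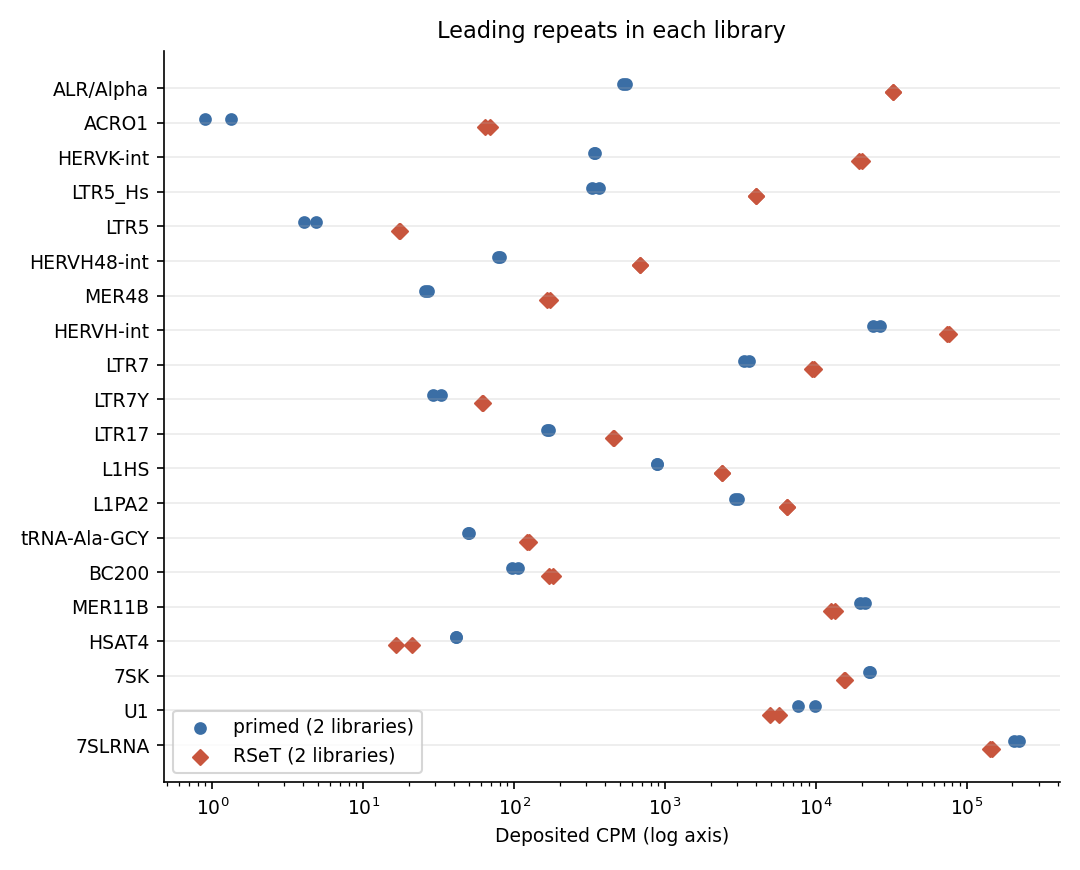
Deposited CPM (logarithmic horizontal axis) of 20 repeats in each of the 2 primed (blue circles) and 2 RSeT (red diamonds) libraries. Replicates lie close together for nearly all entries, the RSeT libraries lie to the right from ALR/Alpha down to BC200, and they lie to the left for MER11B, HSAT4, 7SK, U1 and 7SLRNA.

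A ratio of 2 entries within a library does not depend on scaling, and 38 pairs of an internal part and an LTR were compared in this way. In 19 pairs both RSeT libraries lay above both primed libraries, in 10 below, and in 9 the groups overlapped. With exchangeable libraries a share of 0.333 of pairs would be separated in this way. The pairs are not independent, since all use the same libraries and some share an LTR. Separation did not need a large shift: HERVH-int over LTR7 lay above by 0.099 on the log2 scale and HERVL-int over MLT2A2 below at -0.095. Among the 38 pairs, beside HERVK-int and LTR5_Hs, the ratio rose most for HERVIP10FH-int over LTR10A (2.52, 2.42, 5.28 and 4.84), and for HERVK11-int over MER11C (0.618, 0.612, 1.08 and 1.07). MER11B, another LTR of HERVK11, fell by 0.53 and was not among the pairs. The ratio fell most for HERVE-int over LTR2 (2.79, 2.73, 1.27 and 1.23). In that pair the LTR rose by 0.97 and the internal part fell by 0.18. LTR2 is also the LTR of Harlequin-int, which rose by 0.79, and that ratio fell only from 1.998 and 2.10 to 1.80 and 1.83. For groups of 2 the smallest exact two-sided permutation p is 0.333, so these ratios are given without a test and the p-values elsewhere rest on the model.

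**Figure D3:**
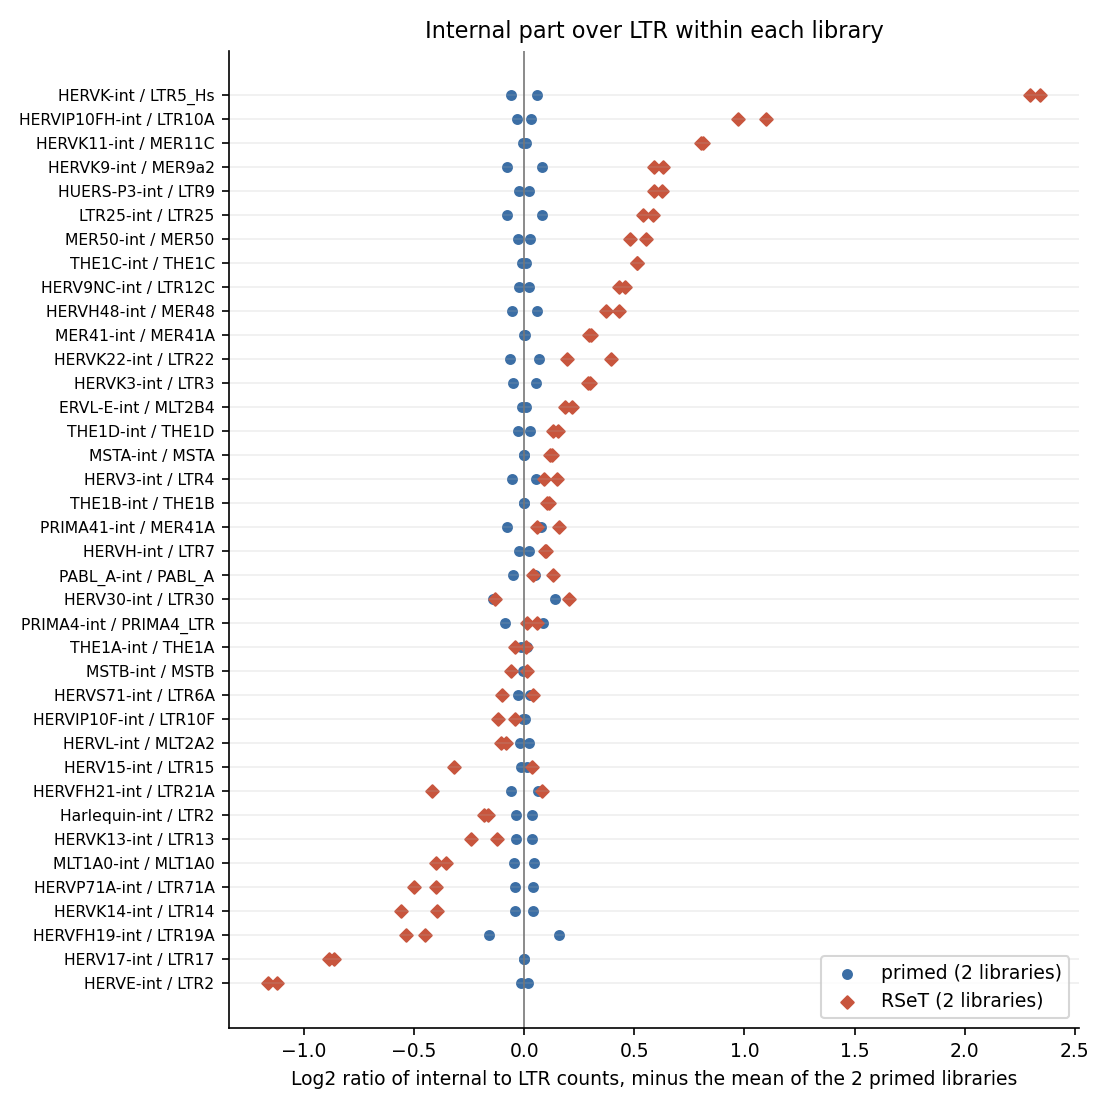
Log2 ratio of internal counts to LTR counts in each library for 38 pairs, relative to the mean of the 2 primed libraries (blue circles, primed; red diamonds, RSeT). HERVK-int over LTR5_Hs stands out at 2.32 above the primed mean, and HERVE-int over LTR2 lies lowest at -1.14.

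The remaining retroviral groups changed less. Their counts stand beside the 50.8% of all 1136 interspersed repeats that were higher and the 8.01% that were lower. Under interspersed scaling 316 and 270 of the 1136 were higher and lower. Of 60 internal parts of other ERV1 families 39 were higher and 9 lower (28 and 14 under interspersed scaling, median 0.33), led by HERV4_I-int (1.41, from 106.6 and 108.2 to 259.1 and 261.2 CPM), MER57-int (1.26) and MER4-int (1.21). HERVFH19-int, HERVP71A-int and HERVFH21-int fell by 0.69, 0.68 and 0.59. Other HERVK families split, with 15 higher (40.5%) and 7 lower (18.9%) of 37 (12 and 11 under interspersed scaling). HERVK11-int rose by 1.11, whereas MER11B, an LTR of HERVK11 and the most abundant entry of the group, fell by 0.53 from 21240 and 19470 to 13300 and 12490 CPM. The share of the group in LTR-element counts went from 19.9% and 17.8% to 8.19% and 7.69%. Of 10 HERV9 and LTR12 entries 6 were higher and 3 lower (5 and 3 under interspersed scaling). The internal part HERV9NC-int rose by 1.005 and the LTRs LTR12D and LTR12C by 0.97 and 0.56, while the internal part HERV9-int fell by 0.21, LTR12E by 0.68 and LTR12B by 0.28. HERVL and its MLT2A LTRs, known from the 8-cell stage, were all higher (4 of 4, 3 under interspersed scaling), by 0.19 for MLT2A1 to 0.46 for MLT2A2. Their share of the larger LTR-element counts fell from 1.08% in both primed libraries to 0.769% and 0.784%. Their share of all repeat counts rose from 0.129% and 0.134% to 0.151% and 0.157%. Of 103 other ERVL members 49 were higher (47.6%) and 9 lower (8.74%), near the shares of all interspersed repeats. These counts became 16 and 26 under interspersed scaling. The THE1 and MST group (17 of 24 higher, 70.8%, none lower) and MLT1 (23 of 56 higher, 41.1%, 3 lower) had medians of 0.19 and 0.11. Under interspersed scaling they stood at 8 higher and 3 lower and at 7 higher and 17 lower.

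LINE1 subfamilies rose broadly, with 109 of 131 higher and 2 lower, L1M6B and the thinly covered L1P (69 and 8 under interspersed scaling). Beside these counts stand 50.8% higher and 8.01% lower among all 1136 interspersed repeats. Under interspersed scaling 316 of the 1136 were higher and 270 lower. L1HS, the only human-specific subfamily and the one that still moves, stood at 886.0, 879.1, 2384 and 2387 CPM (1.57, SE 0.044). L1PA2 stood at 2920, 3038, 6386 and 6419 CPM (1.24, SE 0.033), and L1PA3 at 4396, 4536, 6758 and 6878 CPM (0.74, SE 0.032). Each step to an older subfamily was thus smaller down to L1PA5 (0.28, SE 0.036), but the order did not continue: L1PA8A rose by 0.97 and L1PA13 by 0.74, and L1PA11 and L1PA12 by 0.11 each, which turned to -0.05 without passing under interspersed scaling. Higher L1PA numbers stand for older subfamilies, and the youngest are the most alike in sequence and so the most likely to share reads. L1HS made up 0.790% and 0.749% of LINE1 counts in primed cells and 1.76% and 1.75% in RSeT cells, and L1HS counts per L1PA7 count went from 0.283 and 0.275 to 0.598 and 0.580.

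**Figure D4:**
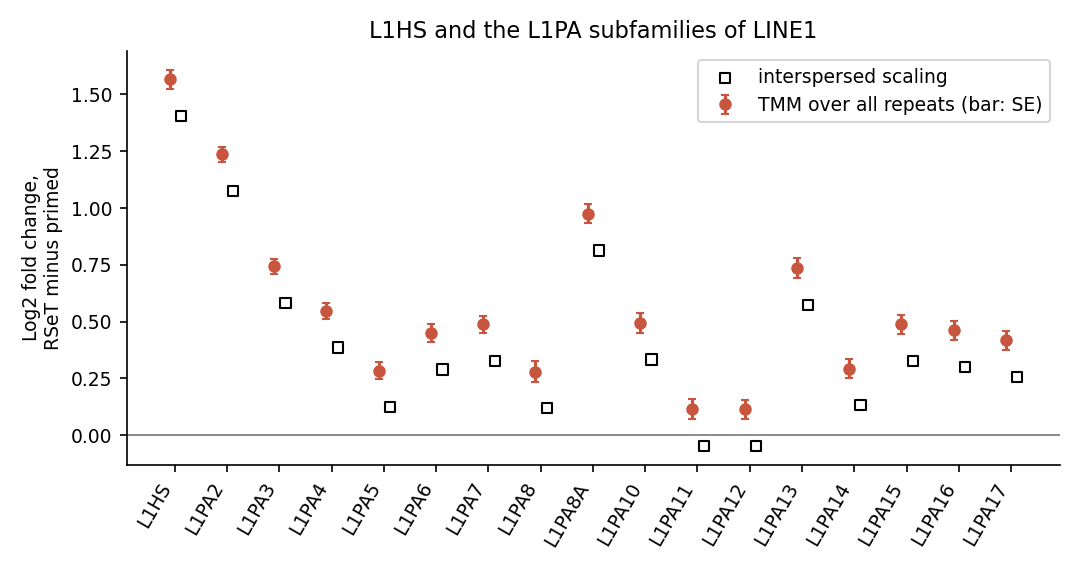
Log2 fold change (RSeT minus primed) of L1HS and 16 L1PA subfamilies, ordered by subfamily number, as fitted over all repeats (red, bars are SE) and under interspersed scaling (open squares). Values fall from 1.57 for L1HS to 0.28 for L1PA5 and then vary, with L1PA8A and L1PA13 high again and L1PA11 and L1PA12 near 0.

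The L1PB subfamilies, an older primate lineage, were all higher (8 of 8 under both scalings), led by L1PB2 (268.9, 284.5, 680.2 and 682.5 CPM; 1.43) and L1PBa1 (1.13). The 12 L1MA subfamilies were also all higher, with a median of 0.38. Of 80 subfamilies from L1MB to L1ME with HAL1, shared among mammals, 63 were higher (78.8%) and L1M6B was lower (-0.66), with a median of 0.21 that left 25 higher and 7 lower under interspersed scaling. These old subfamilies made up 61.6% and 62.0% of LINE1 counts in primed cells and 55.4% and 54.9% in RSeT cells. L1P4d and L1P4e, low in primed cells at 7.42 to 9.54 CPM, reached 28.3 to 32.6 CPM.

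Alu elements, the most numerous short repeats of primates and dependent on LINE1 proteins to move, changed little and by age class. AluY, the most abundant young form, stood at 12680, 12760, 11910 and 11960 CPM (0.04, adjusted p = 0.238; -0.12 under interspersed scaling). Its small recent branches were higher, with AluYd8 at 1.05, AluYh3a3 at 0.77, AluYb8 at 0.65 and AluYa5 at 0.52. AluYb8 stood at 222.7, 203.9, 306.3 and 304.3 CPM, and its ratio to AluSx rose from 0.0108 and 0.00952 to 0.0161 and 0.0155. Of the whole classes 14 of 25 AluY entries were higher and none lower (7 and 4 under interspersed scaling), 3 of 17 AluS entries were higher (none higher and 14 lower), and of 8 AluJ and monomer entries 1 was lower (8 lower). The AluY share of 56.0% was near the 50.8% of all interspersed repeats that were higher, and the AluS share was 17.6%. SVA elements followed an order by letter except for SVA_A, the oldest, which rose by 0.33. From SVA_B (-0.08) and SVA_C (0.05), neither passing, values increased to 0.12 for SVA_D and 0.18 for SVA_E. SVA_F, among the youngest, rose by 0.41 (662.8, 657.7, 807.2 and 794.3 CPM). Under interspersed scaling SVA_B (-0.24) and SVA_C (-0.12) were lower and SVA_D became -0.04.

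DNA transposons, relics that no longer move in humans, had 95 of 196 entries higher and 11 lower, near the background of interspersed repeats, and 33 higher and 54 lower under interspersed scaling. That background was 50.8% higher and 8.01% lower, or 316 and 270 of 1136 under interspersed scaling. Of 65 Tigger and mariner members 45 were higher and 1 lower (14 and 7 under interspersed scaling), and of 113 in the hAT group 43 were higher and 9 lower (15 and 44). Kanga11a rose by 1.12 from 197.3 and 204.6 to 395.1 and 401.6 CPM, and HSMAR1, source of a chimeric host gene, by 0.57. The hAT member hAT-16_Crp fell by 1.70, with only 6.24, 5.28, 1.62 and 1.63 CPM. The ancient L2, L3 and MIR group had 11 of 44 higher and 4 lower (3 and 18 under interspersed scaling), and the conserved UCON and Eulor elements had 28 of 133 higher and 16 lower (14 and 28).

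Small structured RNAs moved in both directions. The total RNA libraries hold transcripts without a poly(A) tail, but such libraries measure very short RNAs unevenly, and each entry also sums copies and pseudogenes. Of 56 transfer RNA entries 38 were higher (67.9%) and 3 lower, with a median of 0.58 (34 and 3 under interspersed scaling). Among all kept entries 22.8% were higher and 23.8% lower. tRNA-Ala-GCY stood at 50.5, 49.5, 125.1 and 121.2 CPM (1.43, SE 0.058). tRNA-Met-i, the initiator, stood at 14.7, 12.5, 33.4 and 32.5 CPM (1.40, SE 0.102), whereas tRNA-Met, the elongator, rose by 0.45. tRNA-Glu-GAA rose by 1.40, and tRNA-Glu-GAG_, tRNA-Gly-GGY and tRNA-His-CAY_ fell by 0.29, 0.44 and 0.44. Transfer RNAs made up 0.320%, 0.316%, 0.366% and 0.359% of all repeat counts.

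Spliceosomal RNAs were lower, 4 of 6 under both scalings. In the main fit that was 66.7%, beside 23.8% of all kept entries. U1, which reads the 5′ splice site, stood at 9848, 7571, 5651 and 4959 CPM (-0.59), and U2, U4 and U5 fell by 0.51, 0.64 and 0.31. U6, transcribed by RNA polymerase III, rose by 0.19, a call lost under interspersed scaling (0.02). 7SLRNA, the scaffold of the signal recognition particle, was the top entry in every library at 22.1%, 20.5%, 14.7% and 14.1% of all repeat counts (-0.43), and 7SK, which holds the elongation factor P-TEFb inactive, fell by 0.41 from 22690 and 22530 to 15630 and 15380 CPM. Their ratio overlapped between groups at 9.74, 9.11, 9.42 and 9.17. U17 fell by 0.30 and U14 rose by 0.86, both small nucleolar RNAs that act in ribosomal RNA processing. U3, of the same kind, could not be placed: it stood at 5038, 3151, 4531 and 3245 CPM, and its value ran from 0.47 without primed replicate 1 to -0.26 without primed replicate 2.

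BC200, a primate RNA derived from an Alu element and known to repress translation, rose by 0.92 (97.4, 106.1, 180.8 and 169.9 CPM; SE 0.046) while the related 7SLRNA fell. BC200 counts per 7SLRNA count were 0.00044, 0.000517, 0.00123 and 0.0012, so BC200 remained a small fraction of the 7SL level in every library.

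Simple repeats were more often lower (29.2%) than higher (12.7%), and the share that was lower was larger for units rich in G and C. Among 186 entries with units of A and T only, 51 were higher and 10 lower, with a median of 0.17, but 24 were higher and 27 lower under interspersed scaling, with a median of 0.0096. Among 658 with 75% to under 100% G and C, 48 were higher and 295 lower (median -0.34; 38 and 379 under interspersed scaling), and among 191 of G and C only, 12 were higher and 98 lower (median -0.30; 6 and 122). Pearson's r between log2 fold change and the GC share of the unit was -0.22 over 3430 entries of the same libraries, which are not independent. Entries with and without a CpG in the tandem had close values at a GC share of at least 60%: with it 41.8% were lower and the median was -0.30, and without it 42.8% were lower and the median was -0.35. Base content also bears on library preparation and alignment, and its part in the result was not tested. In 829 complementary pairs of names both were lower in 127, both higher in 23, and the directions were opposite in 32. Single names were lower in 29.2% and higher in 12.7% of all kept simple repeats. Log2 fold changes within pairs correlated weakly (Pearson's r of 0.21), with a median absolute difference of 0.412.

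**Figure D5:**
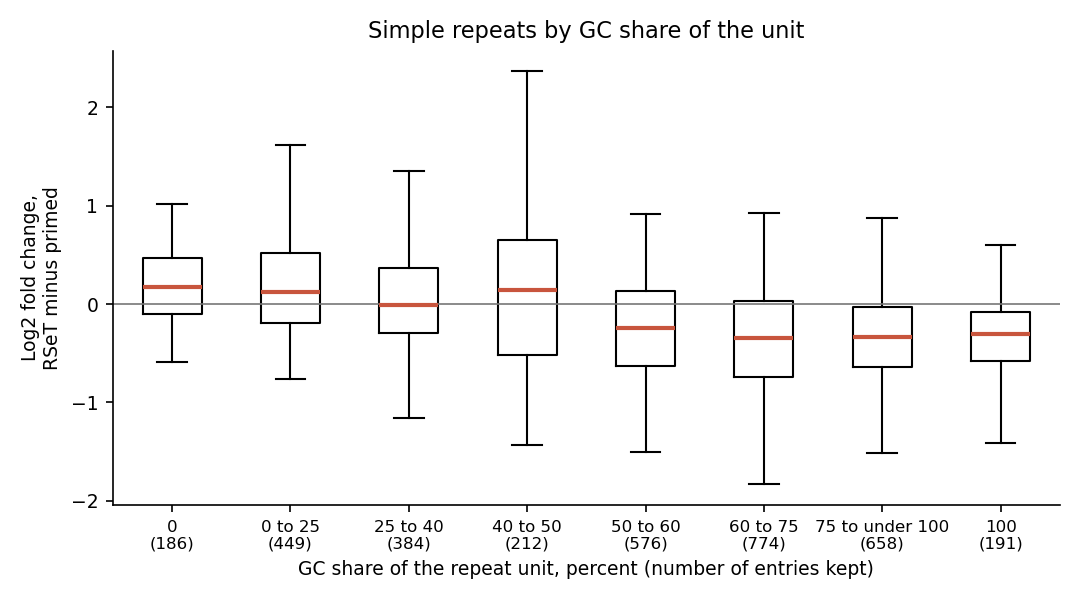
Log2 fold change (RSeT minus primed) of 3430 kept simple repeats by GC share of the repeat unit, with medians in red, boxes over the middle 50% and whiskers from the 5th to the 95th percentile. Medians are 0.17 for units without G or C (0.0096 under interspersed scaling), do not fall in order up to a GC share of 50% (0.12, -0.01 and 0.14), and lie between -0.24 and -0.35 from there upwards.

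Single names among the simple repeats changed by more than most interspersed families, at low counts. From the 8 largest changes in each direction 4 names each are shown as 3 units with the middle one in capitals, because none is a rotation of the satellite pentamer:
(GACCCTG)n, higher, as 3 units: gaccctgGACCCTGgaccctg
(GCGACGC)n, higher, as 3 units: gcgacgcGCGACGCgcgacgc
(CCGCCTG)n, higher, as 3 units: ccgcctgCCGCCTGccgcctg
(GGCCGCC)n, higher, as 3 units: ggccgccGGCCGCCggccgcc
(TTTCAAT)n, lower, as 3 units: tttcaatTTTCAATtttcaat
(AGCGAG)n, lower, as 3 units: agcgagAGCGAGagcgag
(GGCTGAT)n, lower, as 3 units: ggctgatGGCTGATggctgat
(GCCCAGC)n, lower, as 3 units: gcccagcGCCCAGCgcccagc

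(GACCCTG)n had 0 counts in both primed libraries and 280 and 123 in the RSeT libraries, at least 36.3-fold higher against a floor of 3 counts in each primed library. (ACCAGTGC)n, also at 0 in both primed libraries, had 61 and 17 counts, at least 6.48-fold higher. (GCGACGC)n stood at 0.119, 0.0734, 7.10 and 8.09 CPM. Falls of similar size occurred: (TTTCAAT)n stood at 8.14, 10.9, 0.131 and 0.116 CPM (-6.02, SE 0.34) and (GGCTGAT)n at 18.1, 16.8, 0.679 and 1.51 CPM (-4.05). (GCCCAGC)n, at the highest level of these, stood at 88.1, 93.1, 9.69 and 8.90 CPM (-3.13, SE 0.080). A name of this length may belong to few genomic copies, and the host transcripts of those copies were not analysed here. Summed over all rotations and both orientations, common motifs other than the satellite pentamer moved much less. ATCC, among the larger falls, stood at 695.6, 740.7, 411.8 and 442.8 CPM. Of its kept names 9 of 9 were lower, beside 29.2% of all kept simple repeats. These names are part of that sum, so their count is no separate result. By log2 ratio of mean CPM, ACCTC (-0.886) and AAGCC (-0.788) fell more than ATCC (-0.749). Among 10 kept names of ACCTC 2 were higher and 3 lower, and of 2 of AAGCC 1 was lower. The satellite pentamer, summed in this way as AATGG, stood at 32.3, 34.1, 315.0 and 353.2 CPM.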

How the data were processed

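Total RNA of 6 H9 libraries was sequenced from stranded libraries, per the labels' protocols. The submitters' processing notes name GRCh38/hg38 and the tools STAR 2.7.8a, Trimmomatic 0.39, Subread 2.14.2 and featureCounts. What each did, which repeat annotation and strand setting were used and how multi-mapped reads were treated is not given in the sources used here. The authors deposited raw counts per repeat (15600 entries) and a CPM table (7383 entries), whose CPM values equal counts over the total of listed entries within 0.00442.

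Counts were tested with edgeR 4.0.16 (R 4.3.3): filterByExpr (10 counts, total of 15), TMM factors, all 6 libraries in one quasi-likelihood fit with group as the only term, Benjamini-Hochberg adjustment over 4665 entries and a threshold of 0.05. The fit had 3 residual degrees of freedom and a common biological coefficient of variation of 5.49%. The standard error (SE) is the fold change divided by the root of its F value. On simulated counts for RSeT against primed (4665 entries, 50 changed per size) 26%, 52%, 74% and 100% were recovered at 1.25, 1.5, 2 and 4-fold, and 8.03% of calls were false, above the 0.05 threshold. The simulation changed few entries, in random directions and without a shift of scaling. Its share of false calls therefore does not carry over to the real comparison. Chi-square per degree of freedom between replicates was 27.4 for primed and 5.4 for RSeT libraries, beyond sampling noise. Technical steps can add such spread, so these values do not show that replicates were separate cultures. Each library was counted as 1 replicate.

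The labels do not state that replicate numbers mark a pairing, and the deviations of same-numbered libraries correlated at r = 0.0015 over 4665 entries, so no pairing was used. Repeats were listed by name, as no column of the tables gives a class, and the name patterns were corrected after the names were seen. The members, lists, pairs and tests were chosen with earlier results of these data known. Named repeats are those that passed, had a mean count of at least 50 and did not overlap between groups: the 15 largest rises and falls, the 3 largest per list and the 8 largest among simple repeats, plus paired parts and anchor repeats. Other names, such as U5, U6, tRNA-Met, BSR/Beta, LTR5A, LTR5B, the further L1PA subfamilies and the remaining pentamer names, were added after their values were seen. Alternatives were RLE, library totals, interspersed scaling, other filters, DESeq2 1.42.0, limma 3.58.1 on log2(CPM + 1) or log2(CPM + 0.1), a replicate block, only 4 libraries, a minimum change of 2-fold, thinning of RSeT replicate 1 to 44.9% and each library left out.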

Additional observations from a re-analysis of the deposited data

How the results depend on the processing

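Of 218 named repeats 196 passed, and 52 kept their direction and their side of the threshold under all 16 alternatives. The replicate block gave 1053 entries higher and 1104 lower and left 216 of 218 named calls as they were; the numbers do not pair the libraries. Entries higher (1064) became 683 with library totals, 641 with interspersed scaling, 99 with a minimum change of 2-fold and 641 and 622 with limma (pseudocount 1 and 0.1). Entries lower (1110) became 1682 with interspersed scaling, 109 at 2-fold and 686 with DESeq2. Interspersed repeats higher (577) became 331, 316, 26, 314 and 308 with totals, interspersed scaling, 2-fold and the limma fits. Interspersed repeats lower (91) became 191, 270, 1, 178 and 170 in that order, 44 with DESeq2, and 52 to 60 with a library left out, the lowest without RSeT replicate 2. Simple repeats higher (435) became 281 with interspersed scaling, 266 at a mean count of 50, 66 at 2-fold, 282 with DESeq2, 283 and 273 with limma, and 280 to 365 with a library left out, the lowest without RSeT replicate 1. Simple repeats lower (1003) became 108 at 2-fold and 632 with DESeq2. Signs reversed under interspersed scaling for HERVK3-int (-0.00695), HERVS71-int (-0.04), MSTB-int (-0.023), LTR6A (-0.0072), PABL_A (-0.16), MER41A (-0.13), THE1B (-0.025), THE1D (-0.013), MSTA (-0.0061), MLT2B4 (-0.095), AluY (-0.12), SVA_D (-0.038) and LTR7B (-0.074). With library totals and the limma fits they reversed for HERVS71-int (-0.011, -0.010 and -0.010), SVA_D (-0.0089 in each), LTR7B (-0.046 in each), PABL_A (-0.125, -0.117 and -0.119), MER41A (-0.0992, -0.0996 and -0.0998), MLT2B4 (-0.0651, -0.0644 and -0.0646) and AluY (-0.0918, -0.0917 and -0.0917). Other repeats that passed under neither setting, such as HERV15-int and 5S, also changed sign. Without primed replicate 1 or 2, LSU-rRNA_Hsa ran from 1.83 to -0.58, SSU-rRNA_Hsa from 2.69 to -0.83 and U3 from 0.47 to -0.26. The scalings differ by construction; the cause of other shifts was not tested. Simulated 1.25-fold changes, in entries drawn at random from all kept entries, were recovered in 26%, so small changes can be missed. Most kept entries are simple repeats, and the rate does not carry over to abundant interspersed repeats. THE1B, for example, passed at a log2 fold change of 0.14.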
